A study of Mus musculus with 6 samples.

Results

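Regulators of alternative splicing with known tissue preferences were compared between muscle and epithelium sorted from embryonic mouse trachea. The set was given by gene name and held 10 genes of the 23478 in the count table: Esrp1, Esrp2, Rbm47, Rbfox2, Mbnl1, Mbnl2, Mbnl3, Rbpms, Celf2 and Ptbp1. All 10 passed the filter on low counts. Bulk RNA was measured at embryonic day 13.5 in 3 muscle and 3 epithelium libraries, called replicates 1 to 3 of each. All 6 came from control embryos that were Bmp4 f/f, with floxed Bmp4 alleles, and carried gamma SMA eGFP, which reports gamma smooth muscle actin by green fluorescence, and the labels name no Cre driver. Muscle was collected by GFP, so the population is defined by activity of the reporter, and epithelium by surface Epcam. The labels do not say whether replicates were separate embryos, pools or litters, so p-values measure only the spread between these libraries.

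Most genes are spliced in more than one way, and RNA-binding proteins that differ between tissues decide which exons are kept. ESRP1 and ESRP2 promote exon choices typical of epithelia, and they are lost when epithelial cells become mesenchymal. MBNL, RBFOX, CELF, RBPMS and PTBP proteins act on exons of muscle and cytoskeletal transcripts, where PTBP1 mostly represses exons and RBPMS has been described as a driver of the differentiated smooth muscle pattern.

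The deposited counts are per gene and add all its splice forms together. Exon use was not measured here, and every value below is a transcript level of a gene.

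Total counts ranged from 11847432 to 54848820 per library. The 10 smooth muscle markers summed to between 4370 and 19300 CPM (counts scaled to a common library size) in muscle and to between 123 and 159 in epithelium, and the 10 epithelial markers to between 15.3 and 29.6 CPM in muscle and between 3790 and 5000 in epithelium. All 10 markers of each list differed in the labelled direction. Muscle replicate 2, at 4370, was the lowest muscle library in smooth muscle markers. Counts in 1449 olfactory and vomeronasal receptor genes, which these tissues are not known to use, averaged 0.531, 0.979 and 0.41 CPM per gene in muscle replicate 2 and epithelium replicates 2 and 3, and at most 0.03 in the other 3 libraries. This level is given as background beside low values.

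In edgeR's quasi-likelihood test over 19375 genes, 3 of the 10 regulators were higher in epithelium (Esrp1, Esrp2 and Rbm47), 2 were higher in muscle (Celf2 and Rbpms) and 5 did not pass an adjusted p of 0.05. Among all genes tested 10.7% passed, 4.11% toward epithelium and 6.58% toward muscle. All 10 regulators averaged 4.6 log2 CPM or more, and of the 9371 genes averaging at least 4, a bound set after seeing the data, 18.3% passed. The groups did not overlap for 6 of the 10 regulators, against 26.9% of all genes tested and 37.5% of those averaging at least 4 log2 CPM. The median log2 fold change (muscle over epithelium) of the 10 was -0.15, and its median size without sign was 0.96, beside -0.10 and 0.61 over all genes tested. In bulk libraries, fewer cells that use a gene and less RNA of it per cell cannot be told apart.

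**Figure D1:**
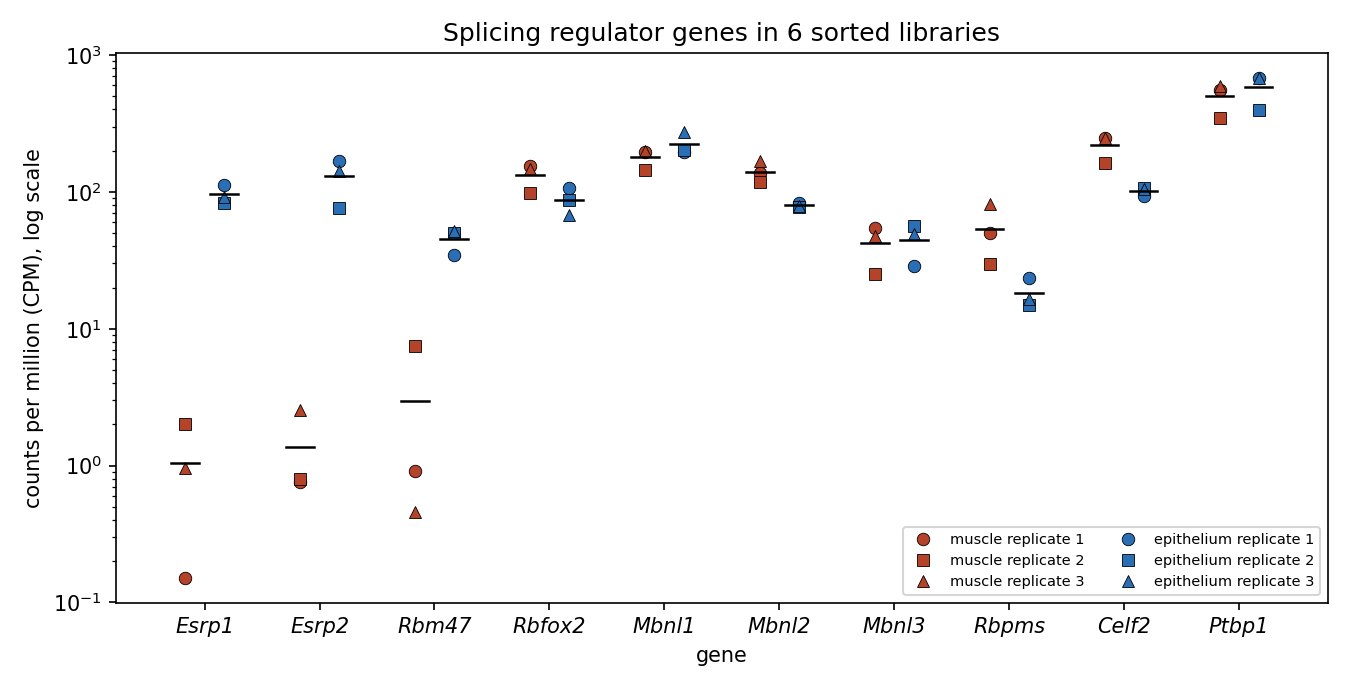
CPM of the 10 regulators (log axis) in each library, muscle in red and epithelium in blue, with marker shape for the replicate and a line at the group mean. Esrp1, Esrp2 and Rbm47 lie below 8 CPM in every muscle library and above 34 CPM in every epithelium library, while the other genes are above 14 CPM in all 6.

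The ESRP genes had the largest differences of the set. Esrp1 had 0.152, 2.00 and 0.961 CPM in muscle replicates 1 to 3 and 112, 83.1 and 91.6 CPM in epithelium replicates 1 to 3. Its group means were 1.04 ± 0.92 and 95.7 ± 15.0 CPM (SD, n = 3), a 94.8-fold lower level in muscle by the fit (-6.57 ± 0.69 in log2, SE; adjusted p = 0.000747). Every epithelium library was far above every muscle library.

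Esrp2, which encodes the second protein of this family, had 0.760, 0.799 and 2.53 CPM in muscle and 169, 76.8 and 143 CPM in epithelium. It was 91.6-fold lower in muscle (-6.52 ± 0.59 in log2, adjusted p = 0.000407). The lowest epithelium library, replicate 2, still stood well above the highest muscle library. Of 19375 tested genes, Esrp1 and Esrp2 ranked 54th and 56th by size of the fold change. Exons of Esrp2 overlap those of Nfatc3 on the opposite strand. The largest overlap with a single Nfatc3 exon is 219 bases, 6.19% of the exon length of Esrp2. Libraries of this kind keep no strand, so some Esrp2 counts may belong to Nfatc3, also in muscle, where they are few.

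The muscle libraries held low but not zero counts of both ESRP genes: 4, 40 and 38 counts of Esrp1 and 20, 16 and 100 of Esrp2. As a share of the epithelial mean, Esrp1 stood at 0.159%, 2.09% and 1.00% and Esrp2 at 0.586%, 0.616% and 1.95% in muscle replicates 1 to 3. The median over the 10 epithelial markers was 0.322%, 0.703% and 0.517% in the same libraries. The ESRP genes were thus below, near or a few fold above the level of other epithelial genes, depending on the library. The part of epithelial cells in these counts was not tested.

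Rbm47 encodes an RNA-binding protein of epithelia that acts in splicing and as a partner of the RNA-editing enzyme APOBEC1. It had 0.912, 7.49 and 0.455 CPM in muscle and 34.3, 50.2 and 51.8 CPM in epithelium. All muscle libraries were below all epithelium libraries, and muscle replicate 2 was far above the other muscle libraries. The fitted level was 15.8-fold lower in muscle (-3.98 ± 0.92 in log2, adjusted p = 0.0253). In muscle replicate 2 Rbm47 reached 16.5% of its epithelial mean, where the epithelial markers reached 0.703%. Markers of immune cells summed to 44.7 CPM in that library, against 3.42 and 12.2 CPM in muscle replicates 1 and 3. Neural and glial markers summed to 71.8 CPM, against 35.8 and 36.2. The receptor genes averaged 0.531 CPM per gene, against 0.03 and 0.02. The part of other cells or of this background in the Rbm47 value was not tested. Without muscle replicate 2 the log2 fold change was -6.07 (adjusted p = 5.39e-05). The call was lost when muscle replicate 1 or any 1 of the epithelium libraries was left out (adjusted p up to 0.126), with library-size scaling (0.0579) and with no filter on low counts (0.0709).

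Of the genes higher in muscle, Celf2 encodes a CELF protein that binds GU-rich RNA and opposes MBNL proteins on some exons. It had 247, 161 and 246 CPM in muscle and 92.7, 106 and 105 CPM in epithelium. All 3 muscle libraries were above all 3 epithelium libraries, with muscle replicate 2 nearest to them. The log2 fold change was 1.11 ± 0.25 (adjusted p = 0.0227), a 2.16-fold difference. Celf2 was well above background in epithelium too, at between 42.5% and 48.5% of its muscle mean, where the smooth muscle markers were at 0.7% to 1.79%. Leaving out replicate 1 or 3 of either population ended the call, with adjusted p up to 0.103 and the fold change in log2 at 1.01 or more.

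Rbpms encodes an RNA-binding protein with 1 RNA recognition motif that dimerises. It had 50.4, 29.7 and 81.1 CPM in muscle and 23.3, 14.8 and 16.4 CPM in epithelium. The groups did not overlap, but muscle replicate 2 came close to epithelium replicate 1. The log2 fold change was 1.56 ± 0.38 (adjusted p = 0.0298), a 2.95-fold difference. Leaving out muscle replicate 1 or 3, or replicate 2 or 3 of epithelium, ended the call, with adjusted p up to 0.138 and the fold change in log2 between 1.15 and 1.62. The muscle libraries followed the order of their smooth muscle markers, which summed to 17800, 4370 and 19300 CPM in replicates 1 to 3, and the part of the purity of the sort in Rbpms was not tested.

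Muscle markers other than those of smooth muscle varied among the same libraries. Myog, the transcription factor of skeletal muscle differentiation, had 245, 1.2 and 17.3 CPM in muscle replicates 1 to 3 and at most 3.34 in epithelium. Myod1 had 62.1, 0.499 and 3.82 CPM in muscle. Over the 10 skeletal muscle markers, 3 were called toward muscle and 0 toward epithelium, and the sums ran from 439 to 1700 CPM in muscle and from 13.7 to 218 in epithelium. Actc1 and Des, which developing smooth muscle also expresses, made up most of the muscle sums. Endothelial markers summed to 68.1 to 94 CPM in muscle and 2.1 to 63.9 in epithelium, with 1 of 8 called. Cartilage markers summed to 910 to 1480 CPM in muscle and 261 to 583 in epithelium, and 4 of the 7 in the table were called toward muscle: Col9a1 (9.36-fold), Col9a2 (6.81-fold), Sox9 (4.02-fold) and Col11a1 (3.50-fold). The cartilage genes Acan and Matn1 were low, at up to 14.7 and 4.14 CPM in any library. Toward epithelium, 3 of 6 markers of oesophageal epithelium and 1 of 6 of mesothelium were called. Their sums were 125 to 230 and 171 to 408 CPM there, against 2.2 to 11.5 and 3.53 to 18.9 in muscle. The mesothelium call was Krt19, which made up most of that sum in epithelium (154, 391 and 222 CPM in replicates 1 to 3). Wt1, Upk3b, Msln and Lrrn4 had at most 6.48 CPM there and were not called. The oesophageal calls were Krt15, Trp63 and Sox2, while Krt5, Krt14 and Pitx1 were not called. Krt19 and Sox2 are also among the 10 epithelial markers. In edgeR 0 of the immune, erythroid and neural or glial markers were called, and 0, 0 and 2 of them had an unadjusted p under 0.05. The part of these cell types in the differences of the regulators was not tested.

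**Figure D2:**
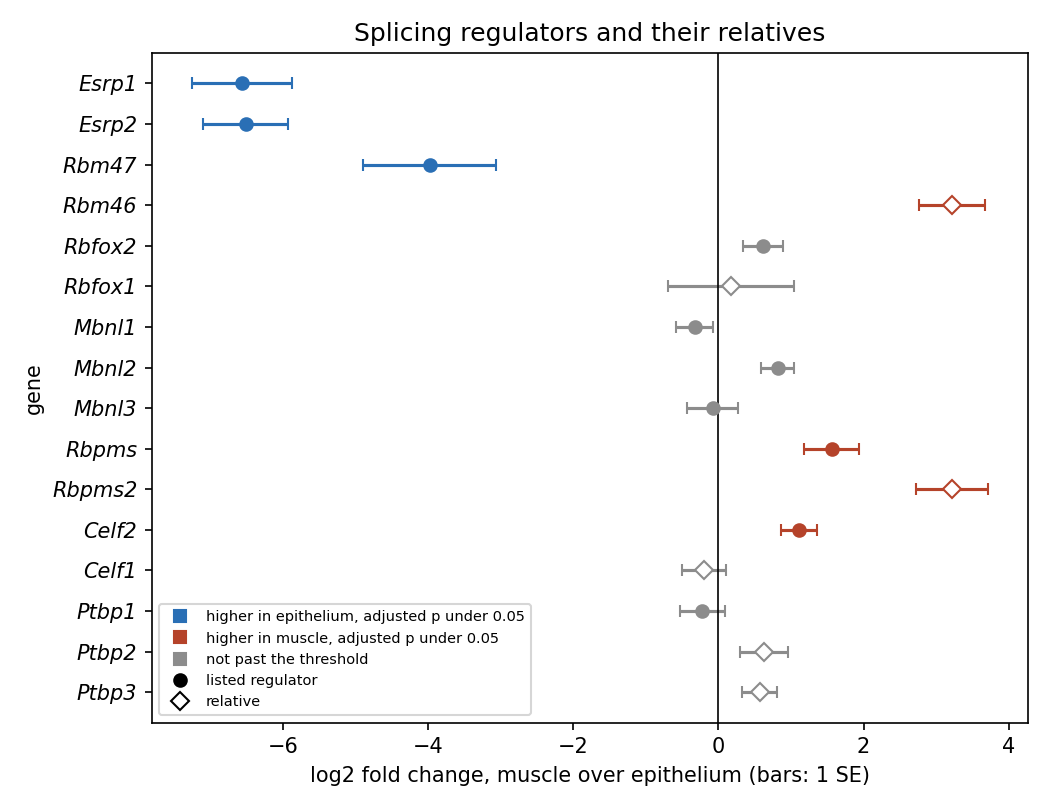
Log2 fold change of muscle over epithelium with 1 SE for the 10 regulators (filled circles) and 6 relatives (open diamonds), coloured where the adjusted p was under 0.05. Esrp1 and Esrp2 lie near -6.5, Rbm47 at -3.98, and its relative Rbm46 lies on the opposite side at 3.22, as does Rbpms2.

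The 3 muscleblind genes, whose proteins favour mature splice forms and are sequestered by repeat RNA in myotonic dystrophy, did not pass the threshold. Mbnl2 had 136, 119 and 167 CPM in muscle and 82.6, 77.3 and 79.3 CPM in epithelium. Its groups did not overlap and its epithelial values were close to each other. The log2 fold change of 0.82 ± 0.23 was just short of the threshold (adjusted p = 0.0531). Of the 16 alternative fits, 9 called it, among them DESeq2 (adjusted p = 0.000363), limma-voom (0.0475) and library-size scaling (0.0445). Of the 6 edgeR fits that each left out a library, 1 called it, the fit without muscle replicate 2 (0.0263). In the other leave-out fits the adjusted p reached 0.262.

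Mbnl1 had 194, 144 and 197 CPM in muscle and 196, 201 and 275 CPM in epithelium. The groups overlapped, and the log2 fold change was -0.33 ± 0.25 (adjusted p = 0.615). Mbnl3 had 54.4, 25.0 and 47.6 CPM in muscle and 28.9, 56.2 and 49.3 CPM in epithelium, with a low library in each group, muscle replicate 2 and epithelium replicate 1. Its log2 fold change was -0.08 ± 0.36 (adjusted p = 0.960), and its sign changed with the libraries used.

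Rbfox2 encodes a protein that binds UGCAUG in introns and activates or represses the neighbouring exon by position. It had 155, 98.5 and 146 CPM in muscle and 106, 87.8 and 67.7 CPM in epithelium. Muscle replicate 2 lay under epithelium replicate 1, so the groups overlapped. The log2 fold change was 0.61 ± 0.28 (adjusted p = 0.240) and passed the threshold in 0 of the 16 alternative fits.

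Ptbp1, the broadly expressed exon repressor, had 559, 345 and 598 CPM in muscle and 679, 396 and 674 CPM in epithelium. In both groups replicate 2 was the lowest library, and the groups overlapped. The log2 fold change was -0.22 ± 0.32 (adjusted p = 0.873), between -0.50 and -0.002 over the 16 alternative fits. Exons of Ptbp1 overlap 3 genes on the opposite strand, E130317F20Rik, Gm17134 and Plppr3. The largest overlap with a single exon of these is 333 bases, 9.65% of the exon length of Ptbp1.

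Levels of different genes were compared as CPM per kilobase of annotated exon (GENCODE M21 basic set, GRCm38). Ptbp1 was the highest of the 10 in both populations, with 145 ± 39.5 in muscle and 169 ± 47.0 in epithelium (SD, n = 3), and its libraries did not overlap those of the next gene. In muscle it was followed by Mbnl1 (30.7 ± 5.18), Mbnl2 (29.7 ± 5.21), Celf2 (22.4 ± 5.06), Rbpms (19.1 ± 9.20) and Rbfox2 (18.4 ± 4.20). Each of these neighbours overlapped the next over the libraries. Mbnl3 (8.12 ± 2.96) came below them without overlap, and Rbm47, Esrp2 and Esrp1, between 0.261 and 0.495 on average, came last.

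In epithelium the order after Ptbp1 was Mbnl1 (38.6 ± 7.58), Esrp2 (36.7 ± 13.5) and Esrp1 (24.1 ± 3.76), each overlapping the next of these. Mbnl2 followed at 16.8 ± 0.573, with no overlap with Esrp1 above it or Rbfox2 below it. Rbfox2 (12 ± 2.64), Celf2 (10.4 ± 0.751), Mbnl3 (8.60 ± 2.72), Rbm47 (7.61 ± 1.62) and Rbpms (6.46 ± 1.60) each overlapped the next. Rbpms thus stood last of the 10 in epithelium, and in muscle it stood next to Rbfox2, with overlapping libraries. The annotation the authors counted against is not given in the sources used here, so the lengths may differ from theirs.

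Ratios between family members within a library do not depend on library scaling. For 9 pairs the log2 ratio of counts was compared between the populations by an exact permutation test (two-sided), in which 3 against 3 libraries cannot give a p under 0.10. In 5 pairs the populations did not overlap, each at the smallest p the test can give (exact p = 0.1, 0.18 after adjustment over the 9 pairs). The share of all gene pairs without overlap was not computed, so this count is not a result about the families. Ptbp1/Ptbp2 and Ptbp1/Ptbp3, both among the 5, share Ptbp1. The ratio of Mbnl1 to Mbnl2 was 0.51, 0.28 and 0.24 in muscle and 1.25, 1.38 and 1.79 in epithelium. Relative to Mbnl2, Mbnl1 was thus lower in every muscle library than in any epithelium library (difference of mean log2 ratios -1.13).

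The ratio of Celf1 to Celf2 was -0.07 ± 0.18 in muscle and 1.25 ± 0.36 in epithelium (SD, n = 3), a difference of -1.32. Ptbp1 relative to Ptbp2 (difference -0.83) and to Ptbp3 (-0.77) and Rbpms relative to Rbpms2 (-1.71) were also lower in every muscle library than in every epithelium library. The ratio of Esrp1 to Esrp2 overlapped, at -0.76 ± 1.82 in muscle, where counts were few, and -0.37 ± 0.42 in epithelium (exact p = 0.8). Mbnl1 to Mbnl3, Mbnl2 to Mbnl3 and Rbfox1 to Rbfox2 overlapped as well, at exact p of 0.6, 0.2 and 0.9.

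**Figure D3:**
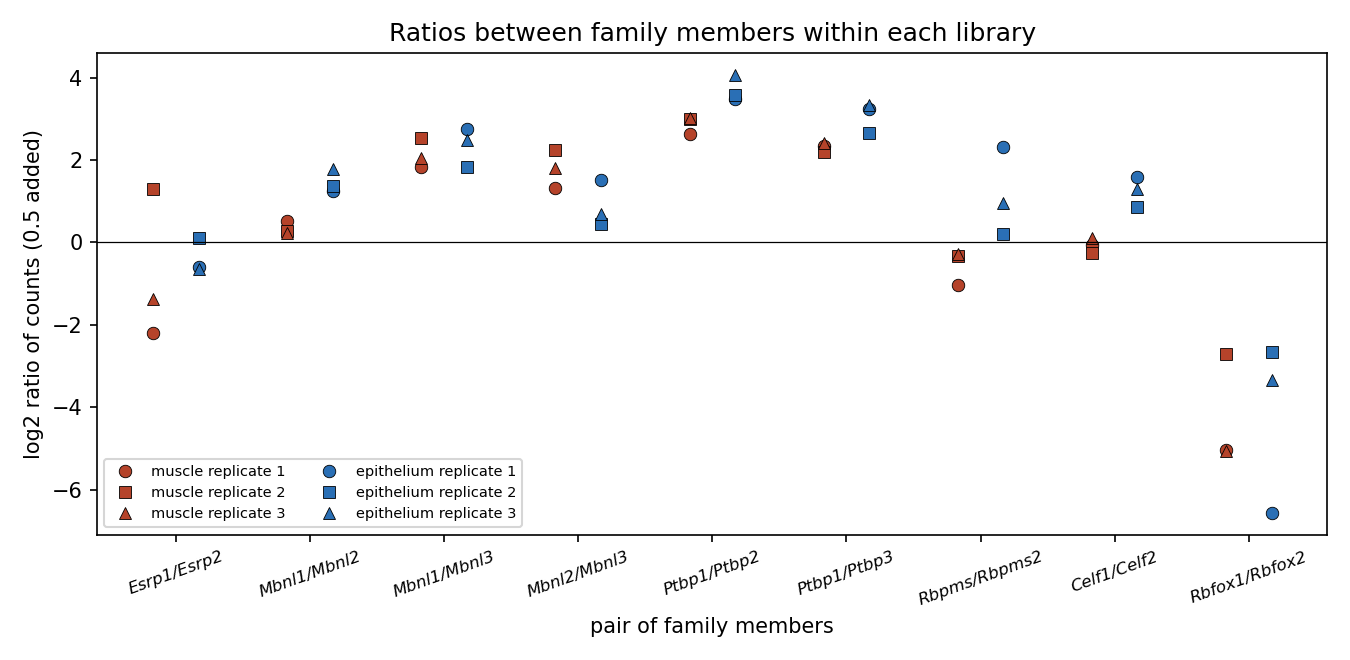
Log2 ratio of counts between 2 family members (0.5 counts added to each) in every library, muscle in red and epithelium in blue. Mbnl1/Mbnl2, Ptbp1/Ptbp2, Ptbp1/Ptbp3, Rbpms/Rbpms2 and Celf1/Celf2 are lower in all 3 muscle libraries than in any epithelium library.

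Beyond the 10 genes, 49 further alternative splicing regulators were listed and all were tested. The edgeR fit called 3 higher in muscle and 0 higher in epithelium, 6.12% beside the 10.7% of all genes, and 9 of the 49 (18.4%) had an unadjusted p under 0.05, beside 21.7% of all genes tested. Toward epithelium, 2 passed with DESeq2 and 1 with limma-voom. Their median log2 fold change was 0.07. The 3 were Rbm46, Rbpms2 and Rbm24.

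Rbpms2, the paralog of Rbpms and known from smooth muscle precursors of the gut, had 103, 37.2 and 99.0 CPM in muscle and 4.67, 12.9 and 8.38 CPM in epithelium. It was higher in muscle by 3.22 ± 0.49 in log2 (adjusted p = 0.00380) and passed in all 16 alternative fits. Both RBPMS genes were thus higher in muscle, and Rbpms2 by the larger fold. Rbm46, a relative of Rbm47 known from germ cells, had 77.5, 26.6 and 63.2 CPM in muscle and 3.98, 8.56 and 5.63 CPM in epithelium. Its log2 fold change of 3.22 ± 0.46 (adjusted p = 0.00261) was opposite in sign to that of Rbm47 and also passed in all 16.

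Rbm24, a splicing regulator of heart and skeletal muscle, had 17.3, 15.8 and 20.02 CPM in muscle and 0.595, 4.14 and 4.77 CPM in epithelium. Its log2 fold change of 2.49 ± 0.68 was just past the threshold (adjusted p = 0.0495) and passed in 6 of the 16 alternative fits. Leaving out muscle replicate 1 or 3, or replicate 2 or 3 of epithelium, ended the call as well, with adjusted p up to 0.143. The part of skeletal muscle cells in Rbm24 was not tested.

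Of the other relatives, Ptbp3 (log2 fold change 0.57 ± 0.24, adjusted p = 0.205) and Ptbp2 (0.63 ± 0.34, adjusted p = 0.357) did not pass. Ptbp2 is the paralog that replaces Ptbp1 in neurons. Celf1 (-0.19 ± 0.30, adjusted p = 0.891) and Rbfox1 (0.17 ± 0.87, adjusted p = 0.966) did not pass either, and both changed sign under some alternatives. Rbfox1, a neuronal and striated muscle gene, was highest in the 3 libraries with the most receptor counts, at 15.2, 13.8 and 6.65 CPM, against 4.71, 4.35 and 1.12 CPM in the other 3.

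Of the general splicing factors, core spliceosome genes were called less often than all genes, and SR protein genes about as often. Of 24 core spliceosome genes 0 passed in edgeR, and 0 had an unadjusted p under 0.05, beside the 21.7% of all genes. Their groups did not overlap for 8.33%, beside 26.9% of all genes tested. Their median log2 fold change without sign was 0.18. Of 11 SR protein genes, whose proteins bind exonic enhancers, 1 passed (9.09%, beside 10.7% of all genes tested). An unadjusted p under 0.05 was found for 3 (27.3%, beside 21.7%). The groups did not overlap for 4, each of them higher in epithelium. That share was 36.4%, beside 26.9% of all genes tested and 37.5% of those averaging at least 4 log2 CPM. The gene that passed was Srsf4, with 6.08, 5.09 and 11.1 CPM in muscle and 36.4, 28.8 and 23.6 CPM in epithelium, lower in muscle at -1.99 ± 0.36 in log2 (adjusted p = 0.00859).

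The list of 25 transcripts known to be spliced differently in epithelium and mesenchyme or in smooth muscle held 10 genes higher in muscle and 3 higher in epithelium, 52% beside 10.7% of all genes. Fgfr2 had 43.9, 49.6 and 79.4 CPM in muscle and 467, 350 and 296 CPM in epithelium, log2 fold change -2.69 ± 0.32, adjusted p = 0.00119. Both populations thus held Fgfr2 transcripts, and the counts do not say which splice forms they were. Itga6, a laminin receptor subunit, (-1.99 ± 0.22, adjusted p = 0.000959) and Fgfr3 (-1.49 ± 0.29, adjusted p = 0.0113) were also higher in epithelium. Fgfr3 lost its call without muscle replicate 1 or muscle replicate 3, where the adjusted p reached 0.0514.

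Toward muscle the largest differences in that list were in genes of the contractile apparatus. They were Tpm2 (log2 fold change 6.58 ± 0.69, adjusted p = 0.000747), Cald1 (4.55 ± 0.50, adjusted p = 0.000904), Tpm1 (3.30 ± 0.39, adjusted p = 0.00113) and Smtn (2.73 ± 0.45, adjusted p = 0.00535). Smtn is also one of the smooth muscle markers used above. Cd44, a hyaluronan receptor gene whose variable exons are retained in epithelia, was higher in muscle as a gene (2.13 ± 0.47, adjusted p = 0.0201). Its call was lost without epithelium replicate 3 (adjusted p = 0.0882) and with library-size scaling (0.0899).

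Ctnnd1, which encodes p120-catenin, and Enah, which encodes an actin regulator, are ESRP targets that did not differ detectably as genes. Ctnnd1 had 256 ± 74.6 and 213 ± 33.3 CPM in muscle and epithelium (SD, n = 3; adjusted p = 0.796), and Enah had 12.5 ± 4.56 and 10.9 ± 0.992 (adjusted p = 0.911). The log2 fold changes were 0.26 ± 0.28 and 0.20 ± 0.37, and with library-size scaling both turned negative.

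Transcription regulators reported to act upstream of Esrp1 were listed because repressors of the ZEB and SNAI families shut the gene off in mesenchymal cells and GRHL2, OVOL and ELF3 proteins maintain epithelial genes. Of 9 listed, 4 were higher in muscle and 4 in epithelium, 88.9% beside 10.7% of all genes. Zeb1 had 159, 59.7 and 116 CPM in muscle and 2.17, 15.6 and 5.11 CPM in epithelium, with a log2 fold change (muscle over epithelium) of 3.90 ± 0.71 and an adjusted p of 0.00883. Zeb2 (3.99 ± 0.63, adjusted p = 0.00423), Snai2 (3.79 ± 0.44, adjusted p = 0.00107) and Snai1 (3.48 ± 0.49, adjusted p = 0.00256) were also higher in muscle. Without epithelium replicate 3 the call of Zeb1 was lost (adjusted p = 0.0577).

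Grhl2 had 0.608, 3.94 and 0.986 CPM in muscle and 187, 125 and 163 CPM in epithelium. The log2 fold change was -6.47 ± 0.69, at an adjusted p of 0.000782. Its size was close to those of the ESRP genes, and the median over the 10 epithelial markers was -7.61. The part of the listed regulators in the ESRP differences was not tested. Ovol2 (-6.90 ± 0.79, adjusted p = 0.000998), Elf3 (-5.45 ± 0.66, adjusted p = 0.00121) and Ovol1 (-4.26 ± 0.62, adjusted p = 0.00295) were also higher in epithelium. The remaining gene, Twist1, named after its value was seen, had at most 6.65 CPM in any library and did not pass (3.09 ± 1.10, adjusted p = 0.125).

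**Figure D4:**
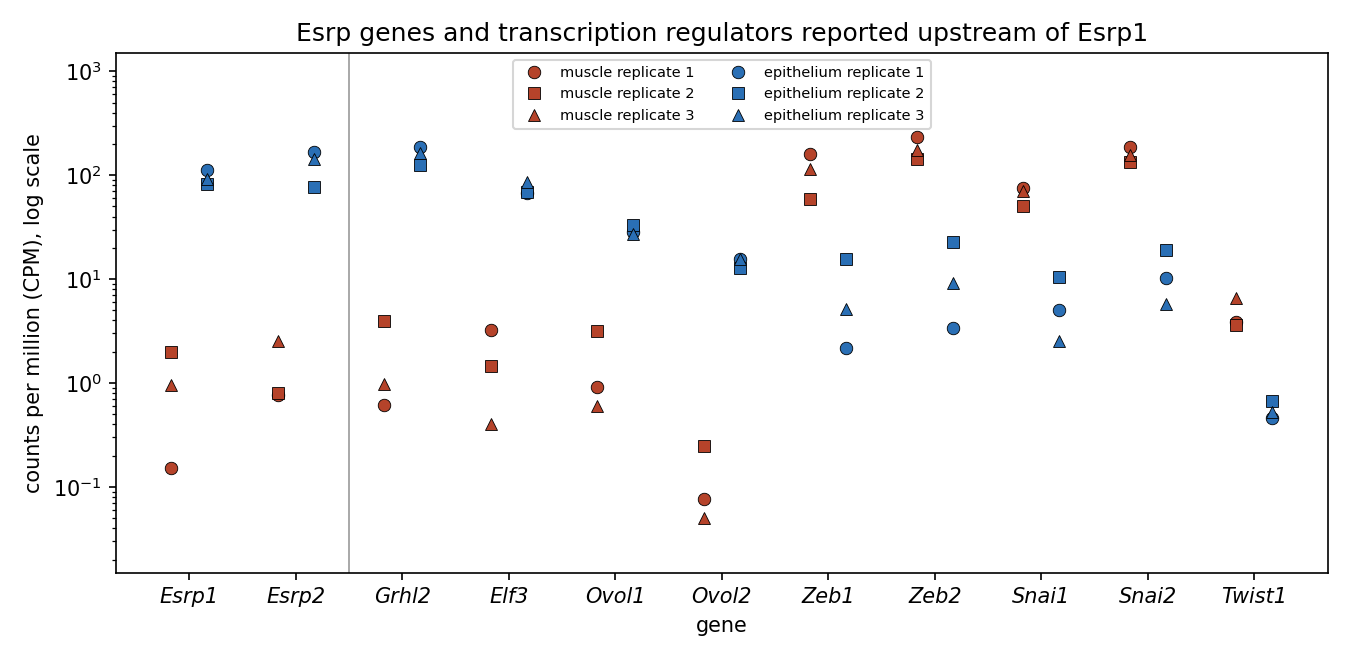
CPM (log axis) of Esrp1, Esrp2 and 9 transcription regulators reported upstream of Esrp1 in each library, muscle in red and epithelium in blue. Grhl2, Elf3, Ovol1 and Ovol2 are higher in all epithelium libraries. Zeb1, Zeb2, Snai1, Snai2 and Twist1, which did not pass the threshold, are higher in all muscle libraries.

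Promoter windows of 300 bases (250 before to 50 after a start, RefSeq, GRCm38.p6) were matched for 6 of the 10 genes, 13 windows in all: Rbm47, Mbnl1, Mbnl2, Mbnl3, Celf2 and Ptbp1. They were searched on both strands for CACCTG, the E-box letters bound by ZEB and SNAI proteins, and for the CArG box of serum response factor. Neither was found in the 13 windows (0 and 0), where 20.2% and 1.63% of 32851 windows of that length held them. Of the 13 windows, 5 belonged to Celf2. At these shares 13 windows are too few for their absence to be a result about the regulators. Esrp1, Esrp2, Rbfox2 and Rbpms had no promoter entry and were not searched.

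The profile most like that of a gene was taken as the smallest root-mean-square distance between log2 CPM profiles over the 6 libraries, each centred on its mean, among 9361 other genes averaging 4 log2 CPM or more. Closest to Esrp1 were Lad1, a basement membrane anchor gene (distance 0.21), 1810019J16Rik (0.26) and Foxa1, a transcription factor gene of foregut epithelium (0.27). Lad1 had 0.152, 1.45 and 0.506 CPM in muscle and 111, 63.9 and 89.8 CPM in epithelium. Closest to Rbpms were Zfhx3 (0.18), Tgfb2, which encodes a transforming growth factor ligand (0.19), and Cxx1b (0.19). These 6 libraries form 2 groups, so a similar difference between the groups is enough for a small distance.

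Several of these calls were lost when 1 library was left out, which also leaves fewer libraries to test. Over all genes, such fits called 570 to 1655 toward muscle, beside 1274 with all 6 libraries. Esrp1 and Esrp2 passed in all 6 fits that each left out a library, with log2 fold changes from -7.32 to -6.04 and from -7.36 to -6.22. Rbm47, Rbpms and Celf2 each passed in 2 of the 6. Leaving out muscle replicate 2 gave the lowest adjusted p for Rbm47 (5.39e-05), Rbpms (0.00421) and Celf2 (0.00501). The number of regulators called higher in muscle was 0 without muscle replicate 1, muscle replicate 3 or epithelium replicate 3, and 1 without epithelium replicate 1 or epithelium replicate 2. An alternative chosen after seeing the data used only the 3 libraries with few receptor counts, muscle replicates 1 and 3 and epithelium replicate 1. Epithelium was then a single library, so only log2 fold changes are given. They were -7.74 for Esrp1, -6.83 for Esrp2, -5.85 for Rbm47, 1.23 for Celf2 and 1.31 for Rbpms.

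**Figure D5:**
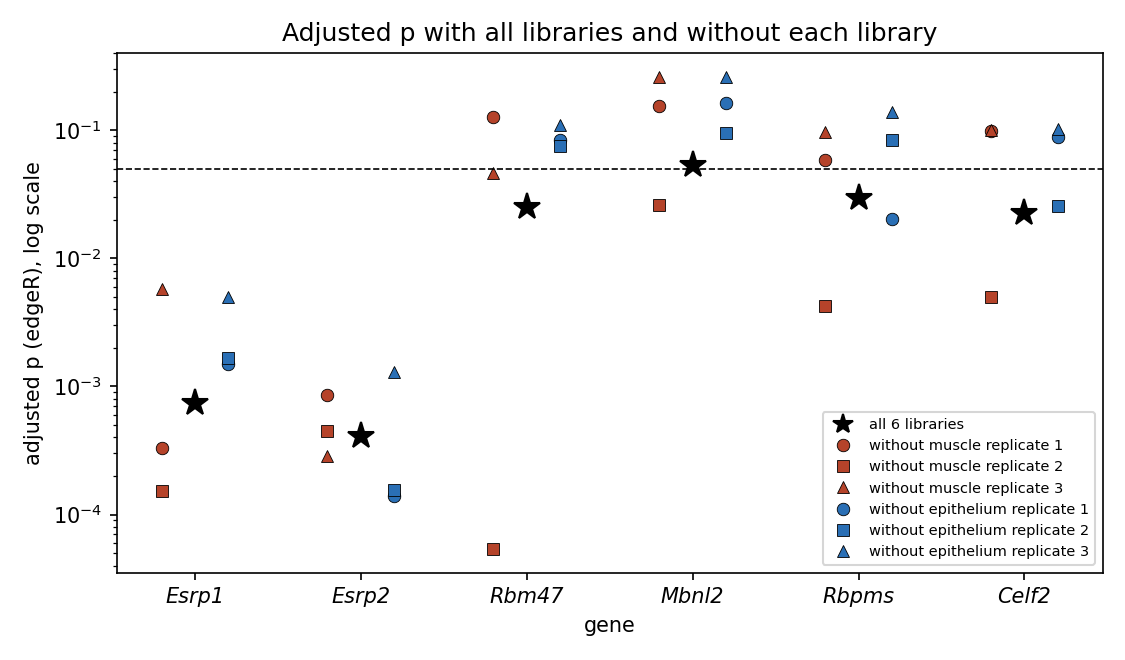
Adjusted p (log axis) of 6 regulators with all 6 libraries (star) and without each library in turn, the shape and colour naming the library left out, with a dashed line at 0.05. Esrp1 and Esrp2 stay under 0.006 in every fit, and Rbm47, Rbpms and Celf2 are under the line in 2 of 6 fits each.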

How the data were processed

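Values are unnormalized integer counts for each gene symbol, as deposited by the authors, and the build is mm10 per the submitters' processing notes, which also name Trim Galore, Bowtie2, Cufflinks and DESeq without role or version. The counting program, annotation and filters are not given in the sources used here. Per the labels' protocols, cDNA came from a SMART-Seq v4 ultra-low-input kit and libraries from Nextera XT, which lack molecular identifiers and, as normally run, strand information, so PCR copies are counted. Of counts from 1 to 19, 73.8% to 79.6% per library were even, a pattern seen when both mates of a pair are counted. All 6 value columns were used and every row named a gene.

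Counts were analysed in R 4.3.3 with edgeR 4.0.16: filterByExpr by group, TMM scaling, robust quasi-likelihood fit, two-sided test of muscle against epithelium, Benjamini-Hochberg adjustment over all 19375 genes tested, threshold 0.05. CPM uses TMM-scaled library sizes. SE is derived from the test statistic. Simulated counts for the same comparison over 19375 genes held 200 changed genes, fewer than the 2071 called in the data. The changed genes were drawn from those averaging above 4 CPM. Of the genes changed by a log2 fold change of 2, 67% were recovered, and of those changed by 4, 86%. Smaller changes were not simulated. In the same simulation 16 unchanged genes were called.

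The genes and lists were chosen with earlier results of these data known. Named were all 10 regulators, up to 4 genes per direction in each other list (past the threshold, no overlap, average log2 CPM of at least 2), Rbfox1, Celf1, Ptbp2, Ptbp3, Rbpms2, Fgfr2, Cd44, Ctnnd1 and Enah, and the 3 nearest profiles of Esrp1 and Rbpms. Alternatives were RLE or library-size scaling, no filter, DESeq2 1.42.0, limma-voom 3.58.1, a threshold of 0.01, counts divided by 2, the replicate number or the header identifier as a term, fewer libraries, and, for ratios, 5 counts added.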

Additional observations from a re-analysis of the deposited data

How the results depend on the processing

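Esrp1, Esrp2, Rbm46, Rbpms2 and Srsf4 kept their direction and call in the 16 alternative fits at the threshold of 0.05. These fits include the one with a single epithelium library. The regulators called higher in epithelium numbered 3, and higher in muscle 2. Leaving out each library in turn gave 2 to 3 for epithelium and 0 to 3 for muscle. At an adjusted p under 0.01 the count in muscle was 0. Among the 49 further regulators, leaving out a library gave 2 to 4 in muscle and 0 to 1 in epithelium. In muscle the count was 5 with DESeq2 and 5 with only the header identifier group that holds 2 libraries per population. In epithelium it was 2 with library-size scaling, 2 with DESeq2 and 1 with limma-voom. Over all genes, 1274 were called toward muscle and 797 toward epithelium. DESeq2 gave 1956 and 1593, the threshold of 0.01 gave 579 and 404, the identifier group as a term gave 2054 in muscle, and library-size scaling gave 1439 in epithelium. Leaving out a library gave 570 to 1655 in muscle and 514 to 918 in epithelium. Library-size scaling moved the median log2 fold change of all genes from -0.10 to -0.33 and the share of calls higher in muscle to 42%.

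The sign changed for 5 genes that did not pass the threshold. Mbnl3 was at 0.31 with only the identifier group of 2 libraries per population, 0.20 without muscle replicate 2, 0.07 without epithelium replicate 2 and 0.63 with the 3 libraries with few receptor counts. Rbfox1 was at -0.054 with library-size scaling, -0.65 without muscle replicate 2 and -0.33 without epithelium replicate 1. Celf1 was at 0.055 without muscle replicate 2, Ctnnd1 at -0.033 with library-size scaling, and Enah at -0.13 with that scaling and -0.058 without muscle replicate 3. Leaving out each library in turn gave -0.30 to 0.20 for Mbnl3, -0.65 to 1.12 for Rbfox1, -0.40 to 0.055 for Celf1 and -0.058 to 0.46 for Enah. The causes were not tested.

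Replicate numbers did not pair all the libraries: deviations from the group means correlated at 0.57, 0.66 and -0.42 for numbers 1 to 3. The header identifier sets both libraries numbered 2 apart from the rest. The replicate block gave 1602 genes toward muscle and 816 toward epithelium. Of the regulators, 3 were then higher in muscle, Mbnl2 being added, and 3 in epithelium. Rbm24 (adjusted p = 0.0574) and Zeb1 (0.0547) did not pass with that block. With 5 counts added, the ratios of family members moved by less than the spread between replicates.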
